A study of Homo sapiens with 4 samples.

Results

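The genes described here are 35 immediate early genes and partners of the same response in NK-92 cells, an established line of human natural killer (NK) cells that needs interleukin 2 (IL-2) to grow. They were taken from a given list of symbols and fall into 6 groups by role: 8 subunits of the transcription factor AP-1 and its MAF partner, 6 EGR and NR4A factors, 3 KLF factors, 8 MAP kinase phosphatases and Sprouty inhibitors, 5 RNA decay and BTG proteins, and 5 other immediate early genes. All 35 symbols matched 1 gene each among the 61860 genes of the count table, and 30 had enough counts to be tested among 17492 genes.

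Immediate early genes are transcribed soon after a stimulus from factors already present in the cell, without new protein synthesis, and many of their transcripts are short-lived. FOS and JUN proteins pair as AP-1, EGR proteins are zinc finger factors, and NR4A proteins are orphan nuclear receptors. Dual specificity phosphatases (DUSP) switch off the MAP kinases that turn these genes on, and ZFP36 proteins bind AU-rich elements and hasten the decay of the transcripts. In NK cells such genes respond to activating receptors and to cytokines.

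Total RNA was sequenced from unedited cells (WT) and from an edited line, ΔOGT-ISS, in which CRISPR-Cas9 removed the intronic splicing silencer of OGT, the gene for the enzyme that attaches O-GlcNAc to proteins. The question put was which genes differ between these lines. Each line had 1 library with human IL-2 given 48 h and 1 with human IL-2 given 24 h before RNA was extracted, so each of the 4 combinations of line and time rests on 1 library. The 48 h library is called replicate 1 of its line, and the 24 h library replicate 2. All cells were kept in medium with IL-2, and only the titles of the 24 h libraries name it. The sources used here do not say whether the edited line is 1 clone or a pool, and a difference between 1 edited and 1 unedited line cannot be assigned to the edit. Nothing in the labels says that libraries came from separate cultures, so differences among these 4 libraries may be technical. The p-values do not measure a spread between replicates. They rest on how far the 4 libraries depart from line and time effects added together, with information shared across genes.

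The 48 h libraries held 10889986 (WT) and 11305599 (ΔOGT-ISS) counts and the 24 h libraries 24809269 and 28576566, so depth moved with the IL-2 time. All 12 NK markers had counts in every library, with summed levels of 3019 to 4983 CPM (counts scaled to library size with edgeR's TMM factors). The 10 T cell markers summed to 416 to 718 CPM, led by CD3E, and 5 B cell markers to 53.9 to 81.5 CPM, led by PAX5. The 8 myeloid markers summed to 827 CPM (WT) and 611 CPM (ΔOGT-ISS) at 48 h and to 316 and 47.7 CPM at 24 h. Most of that was S100A9. S100A8 (22 to 311 counts), ITGAM (86 to 201) and CSF1R (42 to 138) were also counted in every library. CD14 and LYZ were at 0 to 5 counts, CD68 at 0 to 7 and FCN1 at 0 to 3. The 7 fibroblast and epithelial markers summed to 0.793 to 6.4 CPM. The part of the myeloid sum in the differences between the times was not tested.

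Between the times 12 of the 30 tested genes passed edgeR's test (40%), against 25.9% of all tested genes. Where the average level reached 5 CPM, 50% of the list genes passed, against 38.5% of all tested genes at that level. Of the 12 list genes 8 were lower at 24 h, and the largest falls were in JUN, DUSP1, PPP1R15A, BTG1 and FOS. The sequences before these 5 genes are shown because cyclic AMP response elements (CRE, TGACGTCA), bound by CREB and ATF factors, and their core TGACG are known for this class of promoter. JUND, a JUN relative that was higher at 24 h in this test, is shown beside them. With offsets for GC content and length in the fit JUND was lower at 24 h (-0.92, edgeR adjusted p = 0.0115). Each sequence is RefSeq's, on GRCh38.p14, read 5′ to 3′ on the gene's strand. Capitals mark TGACG on either strand (CGTCA where it lies on the other strand). Bases that GENCODE release 29 counts as exon were left out, except that for JUN, where an exon covers the whole stretch, there are 2 runs of 30 bases, the second with TGACATCA in capitals.
DUSP1 (chr5:172771196-172771445, minus strand): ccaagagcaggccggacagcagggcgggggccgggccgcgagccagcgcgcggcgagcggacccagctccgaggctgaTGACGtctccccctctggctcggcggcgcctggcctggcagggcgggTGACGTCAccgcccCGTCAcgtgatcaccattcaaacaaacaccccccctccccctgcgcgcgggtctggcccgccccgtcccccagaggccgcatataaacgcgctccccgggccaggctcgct
PPP1R15A (chr19:48872171-48872391, plus strand): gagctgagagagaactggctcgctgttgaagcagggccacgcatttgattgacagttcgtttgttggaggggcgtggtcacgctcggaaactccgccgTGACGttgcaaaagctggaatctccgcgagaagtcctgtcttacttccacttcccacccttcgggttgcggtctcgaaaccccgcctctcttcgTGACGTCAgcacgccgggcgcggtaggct
BTG1 (chr12:92145898-92146096, minus strand): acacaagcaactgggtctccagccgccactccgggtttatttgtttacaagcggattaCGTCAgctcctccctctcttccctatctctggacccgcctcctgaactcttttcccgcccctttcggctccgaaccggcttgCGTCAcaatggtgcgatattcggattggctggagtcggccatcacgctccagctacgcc
FOS (chr14:75278578-75278773, plus strand): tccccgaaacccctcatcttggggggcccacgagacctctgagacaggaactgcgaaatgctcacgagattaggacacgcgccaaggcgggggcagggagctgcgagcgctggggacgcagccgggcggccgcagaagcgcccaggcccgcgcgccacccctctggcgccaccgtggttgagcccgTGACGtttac
JUN core (chr1:58784154-58784183, minus strand): ggagtctccatggTGACGggcgggcccgcc
JUN variant site (chr1:58784096-58784125, minus strand): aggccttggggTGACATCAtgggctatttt
JUND (chr19:18281623-18281872, minus strand): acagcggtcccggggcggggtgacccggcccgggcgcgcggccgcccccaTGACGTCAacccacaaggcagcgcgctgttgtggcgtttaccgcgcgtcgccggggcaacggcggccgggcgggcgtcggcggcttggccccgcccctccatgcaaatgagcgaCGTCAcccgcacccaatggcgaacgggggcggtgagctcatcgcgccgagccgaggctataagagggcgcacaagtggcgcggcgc

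DUSP1, PPP1R15A and JUND carried the full CRE, and FOS and BTG1 only the core. Over windows of 250 bases before to 50 after the RefSeq start, TGACG on either strand was found in 18 of the 28 list genes with a RefSeq entry (64.3%), against 25.0% of 27305 promoters. These promoters were not matched to the list genes for GC content, which was 47.7% (SPRY1) to 82.3% (SIK1) in the list genes' windows. EGR3, NR4A2, KLF10, DUSP4, DUSP5, FOSL1 and ZFP36L2 had no entry. The core was in 7 of the 8 genes that were lower at 24 h and in 2 of 3 that were higher, and in 6 of the 14 tested genes that did not pass. These groups are those without offsets for GC content and length, and with the offsets no list gene passed as higher. The full CRE, which contains the core, was in 4 of 28 (14.3%, against 1.98% of all promoters): JUND, DUSP1, MAFF and PPP1R15A. TGACATCA, added after the JUN sequence was read, was in JUN, KLF6 and DUSP10 (10.7%, against 2.71%).

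Further motifs were searched on both strands of the same windows. The AP-1 site TGANTCA was in FOSL2 alone (3.57%, against 7.76% of all promoters). The EGR site GCGNGGGCG was in 7 of 28 (25.0%, against 9.28%), among them EGR1 itself, DUSP2, KLF6 and BTG2. The ETS core GGAAG was in 71.4%, against 71.9%, and the CArG box bound by SRF was in EGR1 alone (1.29% of all promoters). These are matches of letters, not measured binding, and here too the background was not matched for GC content.

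**Figure D1:**
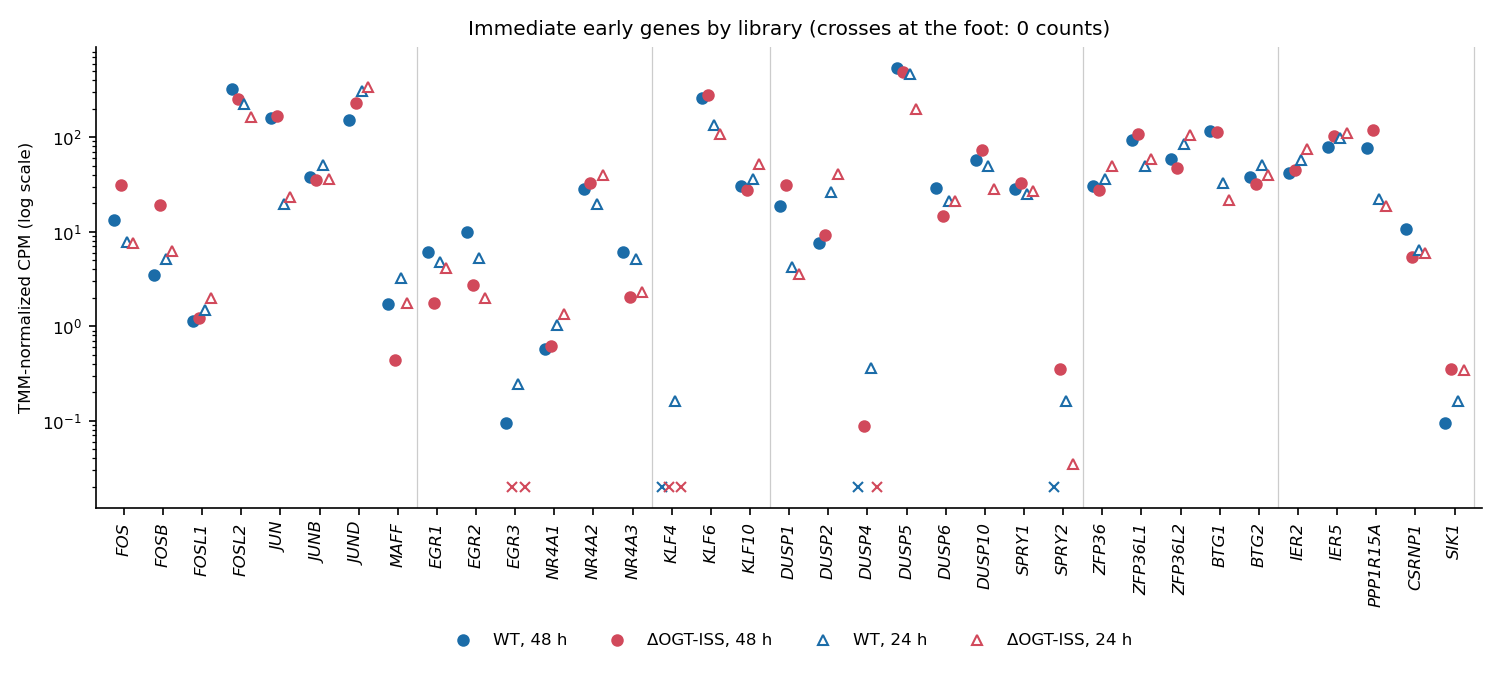
TMM-normalized CPM (log axis) of the 35 genes in the 4 libraries, grouped by role between grey lines; circles are 48 h, triangles 24 h, blue WT and red ΔOGT-ISS, and crosses mark 0 counts. DUSP5 reached 199 to 539 CPM, and EGR3, KLF4, DUSP4, SPRY2 and SIK1 held 0 to 10 counts in each library.

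The genes covered a wide range of levels. Per length, on the deposited FPKM scale, DUSP5 (a nuclear phosphatase of ERK) was highest with a mean over the 4 libraries of 170, followed by JUND at 133, KLF6 at 42.2, FOSL2 at 35.6 and JUN at 28.4. DUSP5 was measured at 211, 199, 188 and 81.6 FPKM (WT and ΔOGT-ISS at 48 h, then at 24 h), and JUND at 75.8, 119, 158 and 180, so their order differed between libraries. IER2, ZFP36L1, PPP1R15A, IER5, JUNB, ZFP36, ZFP36L2 and DUSP10 followed with means of 20 to 25.9 FPKM, closer together than their libraries were. BTG1, BTG2, KLF10, DUSP2, SPRY1, NR4A2, DUSP1, FOS and DUSP6 had means of 5.87 to 15.3, and FOSB, CSRNP1, EGR2 and EGR1 of 1.32 to 2.27. FOSL1, MAFF, NR4A3 and NR4A1 were under 1 FPKM on average. The 5 untested genes were EGR3 (0 to 6 counts a library), KLF4 (0 to 4), DUSP4 (0 to 9), SPRY2 (0 to 4) and SIK1 (1 to 10), so the classical EGR3 and KLF4 were at or near the limit of detection, where a count of 0 allows up to 3 counts, or 0.103 to 0.284 CPM.

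Within families 1 member usually dominated. FOSL2 made up 65 to 85.7% of the summed FPKM of the FOS family, and NR4A2 80.8 to 94% of the NR4A family. Among the DUSP genes DUSP5 made up 65.3 to 83.2%. The leading JUN gene was JUND, with 52.6% (WT) and 62.3% (ΔOGT-ISS) at 48 h and 82.6% and 86.9% at 24 h. All these shares are of deposited FPKM, without the offsets for GC content and length. With the offsets JUND was lower at 24 h (log2 -0.92).

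**Figure D2:**
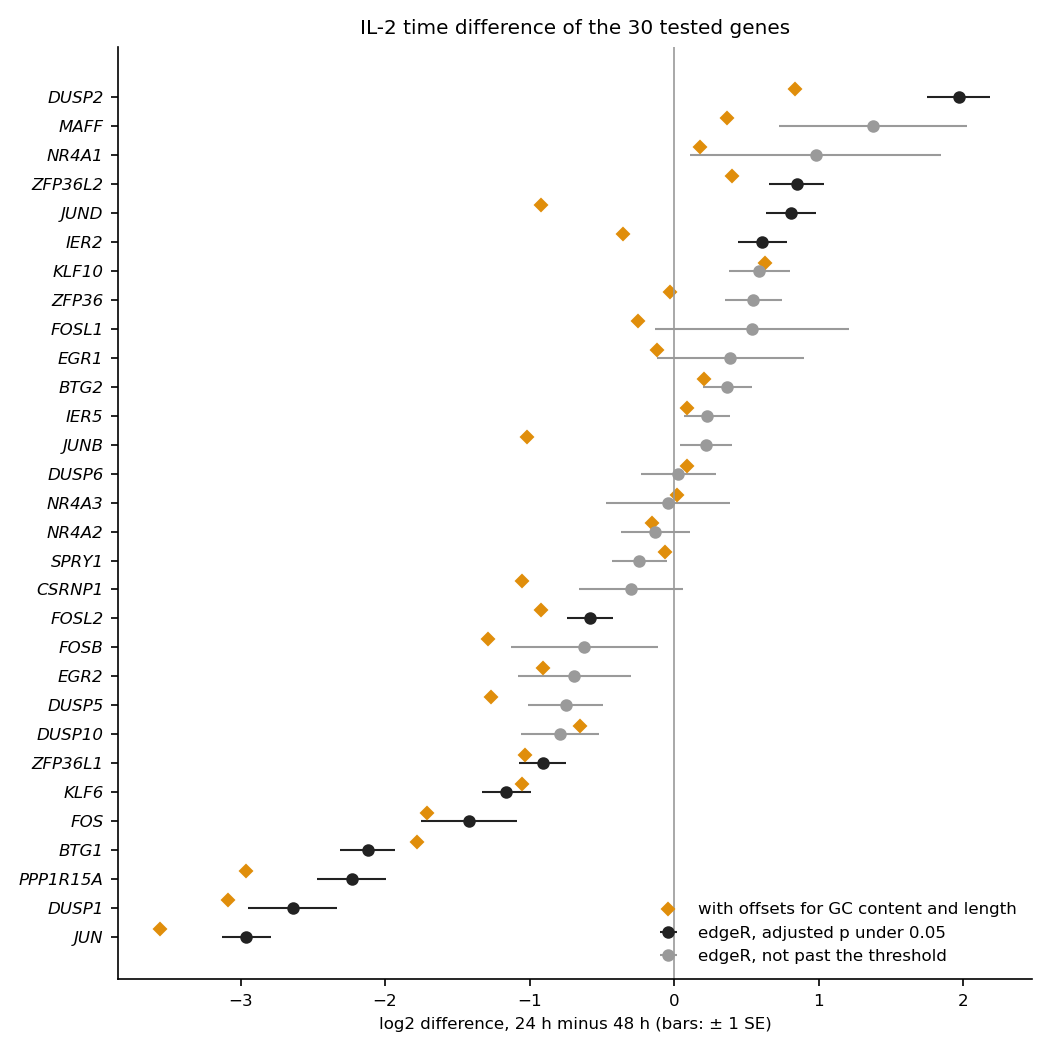
Log2 difference between 24 h and 48 h for the 30 tested genes from edgeR, with 1 SE; black points passed the adjusted p of 0.05, grey did not, and orange diamonds are the values with offsets for GC content and length. JUN, DUSP1, PPP1R15A and BTG1 lie below -1.5 by both; JUND and IER2 lie above 0 without and below 0 with the offsets.

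Across the IL-2 times JUN, FOS, FOSL2, KLF6, DUSP1, BTG1, ZFP36L1 and PPP1R15A were lower at 24 h and JUND, DUSP2, ZFP36L2 and IER2 higher (none of these 4 with offsets for GC content and length, which turned JUND and IER2 below 0), while the EGR and NR4A factors did not pass the test. Of the 30 tested genes 8 fell (26.7%) and 4 rose (13.3%), against 10.9% lower and 15.0% higher of all tested genes (25.9% in all). All 12 had a mean of at least 5 CPM. Among the 24 list genes at that level 33.3% were lower and 16.7% higher, against 15.4% and 23.0% of 9854 genes (38.5% in all). The median log2 difference was -0.09 over the list and 0.07 over all tested genes. The time cannot be told apart from the depth and the preparation of the libraries, and in bulk RNA fewer cells with a transcript cannot be told apart from less of it per cell.

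JUN (ENSG00000177606, chromosome 1, 58780788 to 58784327), a core AP-1 subunit, was counted at 161 CPM (WT) and 169 CPM (ΔOGT-ISS) at 48 h and at 19.4 and 23.2 CPM at 24 h. Both 48 h libraries lay far above both 24 h libraries, and the lines were close at each time. The fall was 7.77-fold (log2 -2.96, SE 0.17, edgeR adjusted p = 0.000145). Its share of the JUN family's FPKM went from 33.3% to 3.09% in WT and from 27.5% to 3.5% in ΔOGT-ISS. JUND (ENSG00000130522, chromosome 19, 18279760 to 18281622), which is often constitutive, stood at 151 and 227 CPM at 48 h and at 307 and 341 CPM at 24 h (WT, then ΔOGT-ISS). The rise of JUND was 1.75-fold (log2 0.81, SE 0.17, edgeR adjusted p = 0.0132), but with offsets for GC content and length it was lower at 24 h (-0.92, edgeR adjusted p = 0.0115). JUNB, at 38, 35.3, 50.4 and 36 CPM, did not pass (0.22, edgeR adjusted p = 0.425) and was likewise lower with the offsets (-1.02, edgeR adjusted p = 0.00842).

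FOS (ENSG00000170345, chromosome 14, 75278774 to 75282230), the partner of JUN in AP-1, was at 13.3 CPM (WT) and 30.9 CPM (ΔOGT-ISS) at 48 h and at 7.72 and 7.59 CPM at 24 h. The libraries of the 2 times did not overlap, and the highest was ΔOGT-ISS at 48 h. FOS fell 2.68-fold (log2 -1.42, SE 0.33, edgeR adjusted p = 0.0171), and without ΔOGT-ISS replicate 1 the value was -0.80 (edgeR adjusted p = 0.102). FOSL2 (ENSG00000075426, chromosome 2, 28392448 to 28417312), the most abundant FOS gene, went from 320 and 256 CPM at 48 h to 222 and 164 CPM at 24 h, a fall of 1.5-fold (log2 -0.58, SE 0.16, edgeR adjusted p = 0.0286). It passed in 7 of the 15 alternatives. FOSB, FOSL1 and MAFF did not pass, at -0.62, 0.54 and 1.38 (edgeR adjusted p = 0.412, 0.594 and 0.16). FOSB differed between the lines in how it went, with a 24 h to 48 h ratio of 1.46 in WT and 0.325 in ΔOGT-ISS.

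**Figure D3:**
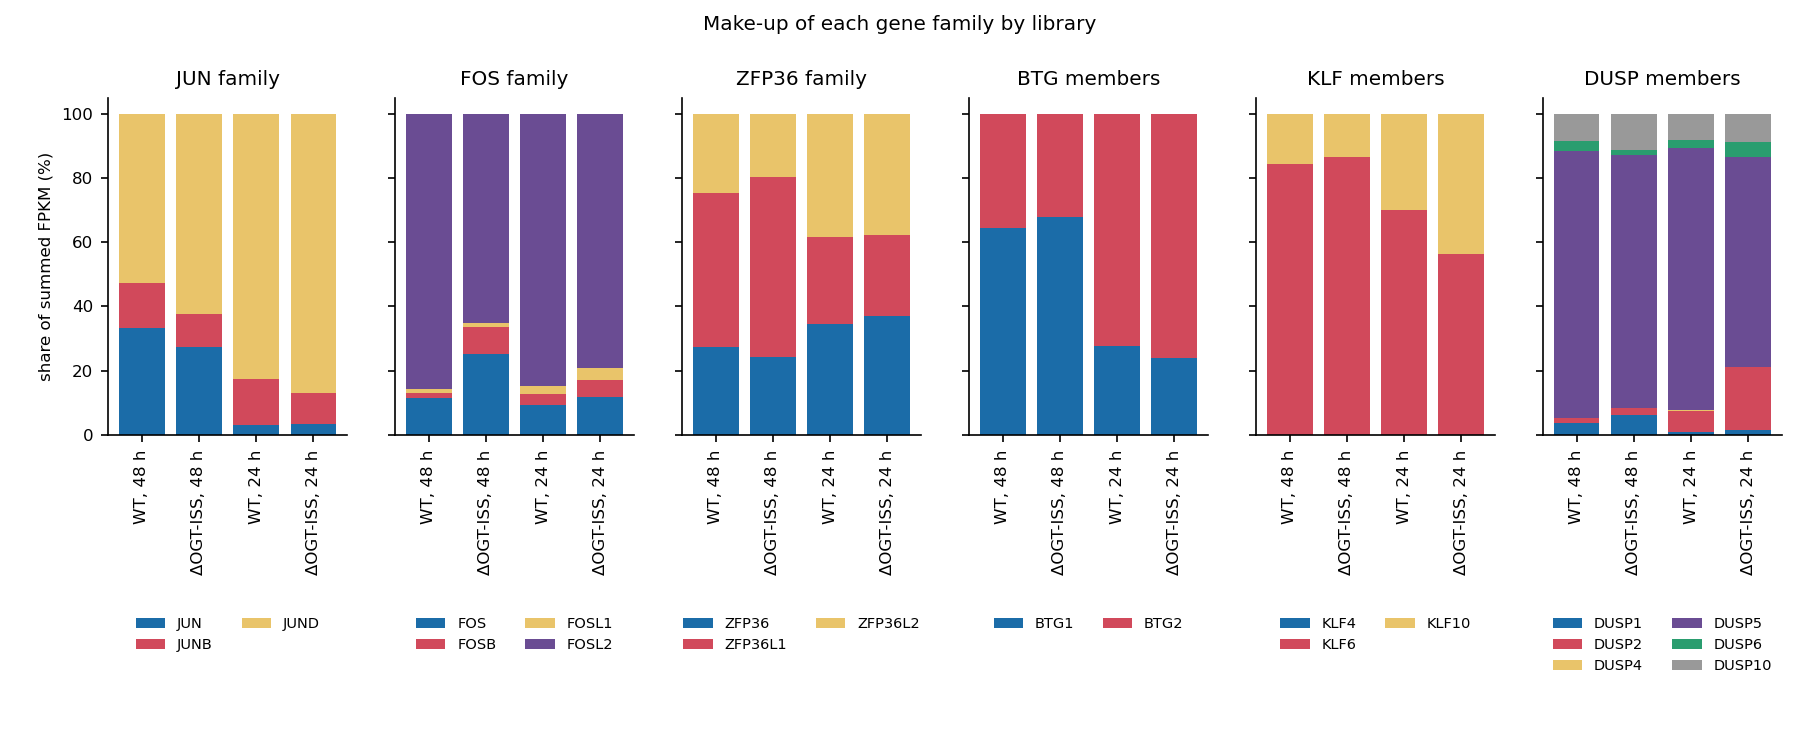
Share of each family's summed FPKM held by its members in each library, without offsets for GC content and length. JUN went from 27.5% or more of its family at 48 h to 3.5% or less at 24 h, and BTG1 from 64.4% or more to 27.6% or less.

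No tested EGR or NR4A factor passed between the times (0 of 5, by edgeR and by DESeq2), against 25.9% of all tested genes. None had an unadjusted edgeR p under 0.05. EGR1, EGR2, NR4A1 and NR4A3 had means of 4.18, 4.98, 0.885 and 3.88 CPM, under the 5 CPM from which 38.5% of genes passed. A count of 0 of 5 therefore does not show that the EGR and NR4A factors stayed level. Their log2 values were 0.39 for EGR1, -0.69 for EGR2, 0.98 for NR4A1, -0.13 for NR4A2 and -0.04 for NR4A3, with SEs of 0.24 to 0.87 (edgeR adjusted p = 0.234 to 0.961). NR4A2, the most abundant of them, was at 28.4, 33, 19.4 and 39.8 CPM. KLF6 (ENSG00000067082, chromosome 10, 3775996 to 3785281), a zinc finger factor, fell from 259 and 278 CPM at 48 h to 135 and 107 CPM at 24 h (WT, then ΔOGT-ISS). The 48 h libraries were both higher than the 24 h ones, and the fall was 2.23-fold (log2 -1.16, SE 0.17, edgeR adjusted p = 0.00323). KLF10 had a difference of 0.59 (edgeR adjusted p = 0.0747).

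Among the MAP kinase phosphatases DUSP1 and DUSP2 went opposite ways. DUSP1 (ENSG00000120129, chromosome 5, 172768090 to 172771195), which acts on p38 and JNK as well as ERK, was at 18.9 CPM (WT) and 30.8 CPM (ΔOGT-ISS) at 48 h and at 4.22 and 3.55 CPM at 24 h. All 48 h values lay above all 24 h values, a fall of 6.25-fold (log2 -2.64, SE 0.31, edgeR adjusted p = 0.00131). DUSP2 (ENSG00000158050, chromosome 2, 96143166 to 96145440), a nuclear phosphatase of lymphocytes, was at 7.66 and 9.2 CPM at 48 h and at 26.2 and 40.9 CPM at 24 h. The rise of DUSP2 was 3.91-fold (log2 1.97, SE 0.22, edgeR adjusted p = 0.00121) and ended short of the threshold with the GC and length offsets (0.84, edgeR adjusted p = 0.0547). Its share of the DUSP genes' FPKM went from 1.74% to 6.7% in WT and from 2.18% to 19.7% in ΔOGT-ISS.

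DUSP5 and DUSP10, a phosphatase of JNK and p38, had differences of -0.75 and -0.79 that did not pass (edgeR adjusted p = 0.0663 and 0.0633), and both passed with RLE or upper-quartile scaling. In these genes the 24 h level was low mainly in ΔOGT-ISS: DUSP5 was at 539, 489, 469 and 199 CPM and DUSP10 at 57.1, 73.4, 49.1 and 28.4 CPM (WT and ΔOGT-ISS at 48 h, then at 24 h). DUSP6, a cytoplasmic phosphatase of ERK, and SPRY1, which restrains RAS signalling, had differences of 0.03 and -0.24 (edgeR adjusted p = 0.948 and 0.393).

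The RNA decay and BTG genes split too. BTG1 (ENSG00000133639, chromosome 12, 92140278 to 92145897), an antiproliferative protein that binds the deadenylase CAF1, was at 117 and 114 CPM at 48 h and at 32.6 and 21.5 CPM at 24 h (WT, then ΔOGT-ISS). The lines were close at 48 h, both far above the 24 h libraries, and the fall was 4.36-fold (log2 -2.12, SE 0.19, edgeR adjusted p = 0.000626). BTG2 did not pass (0.37, edgeR adjusted p = 0.152), and BTG1's share of the pair's FPKM went from 64.4% and 67.9% at 48 h to 27.6% and 24.1% at 24 h.

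ZFP36L1 (ENSG00000185650, chromosome 14, 68787660 to 68796253) went from 92.2 and 109 CPM at 48 h to 48.9 and 58.3 CPM at 24 h. It fell 1.88-fold (log2 -0.91, SE 0.16, edgeR adjusted p = 0.00537). ZFP36L2 (ENSG00000152518, chromosome 2, 43222402 to 43226609) went from 58 and 47.5 CPM to 85 and 106 CPM. The rise was 1.81-fold (log2 0.85, SE 0.19, edgeR adjusted p = 0.0155), and with the offsets ZFP36L2 stood at 0.40 (edgeR adjusted p = 0.244). ZFP36 itself (tristetraprolin) was at 30.4, 27.6, 36.4 and 49.5 CPM and did not pass (0.55, edgeR adjusted p = 0.0831). In both lines ZFP36L1 held the largest share of this family's FPKM at 48 h (48% and 55.9%), and the smallest at 24 h (27% and 25.3%).

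PPP1R15A (ENSG00000087074, chromosome 19, 48872392 to 48876057), also called GADD34, brings protein phosphatase 1 to eIF2 alpha. It was at 76.5 CPM (WT) and 119 CPM (ΔOGT-ISS) at 48 h and at 22.1 and 18.8 CPM at 24 h. The times were well apart, and the fall was 4.7-fold (log2 -2.23, SE 0.24, edgeR adjusted p = 0.000986). IER2 (ENSG00000160888, chromosome 19, 13150415 to 13154908), a nuclear immediate early protein, was at 41.3 and 44.9 CPM at 48 h and at 57.9 and 74.4 CPM at 24 h. IER2 rose 1.53-fold (log2 0.61, SE 0.17, edgeR adjusted p = 0.0331), but with the offsets its sign was reversed (-0.35, edgeR adjusted p = 0.265). IER5 and CSRNP1 did not pass, at 0.23 and -0.30 (edgeR adjusted p = 0.338 and 0.576).

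Counted by libraries alone, 11 of the 30 genes had both 24 h libraries below both 48 h libraries (36.7%, against 30.1% of all tested genes) and 10 had both above (33.3%, against 34.8%). The 3 genes below without passing the test were DUSP5, DUSP10 and SPRY1. The share above is close to that of all genes. Leaving out 1 library, which also drops the line term, left the calls of JUN, DUSP1, PPP1R15A, BTG1 and DUSP2 in place. KLF6 ended short without ΔOGT-ISS replicate 2 (-0.91, edgeR adjusted p = 0.0747). FOS, ZFP36L1 and ZFP36L2 ended short without WT replicate 2 or either ΔOGT-ISS library, JUND without either WT library or ΔOGT-ISS replicate 2, and FOSL2 and IER2 without any 1 of the 4.

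The differences between the times followed GC content across all tested genes. The median log2 difference rose from -0.44 in genes with up to 35% GC in their longest transcript to 1.52 in those above 65%. The list genes had a median GC content of 54.8%, against 47.9% for all tested genes, and the fitted offset for GC content and length had a median of 0.45 log2 units over the list. The 8 genes that were lower had a median of 53% and the 4 that were higher 62.8%, with JUND at 69.7%. With offsets for GC content and length in the fit, 11 list genes passed (36.7%), all lower at 24 h, against 7.17% lower and 5.83% higher of all genes (13.0% in all). These were the 8 named above and DUSP5 (-1.27), JUNB (-1.02) and JUND (-0.92). Among genes of at least 5 CPM 45.8% of the 24 list genes passed, against 18.4% of all genes at that level (9.4% lower and 9.02% higher). JUN stood at -3.56, DUSP1 at -3.09, PPP1R15A at -2.96, BTG1 at -1.78 and FOS at -1.71. JUN, DUSP1, PPP1R15A and BTG1 passed in all 15 alternatives tried for the time.

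**Figure D4:**
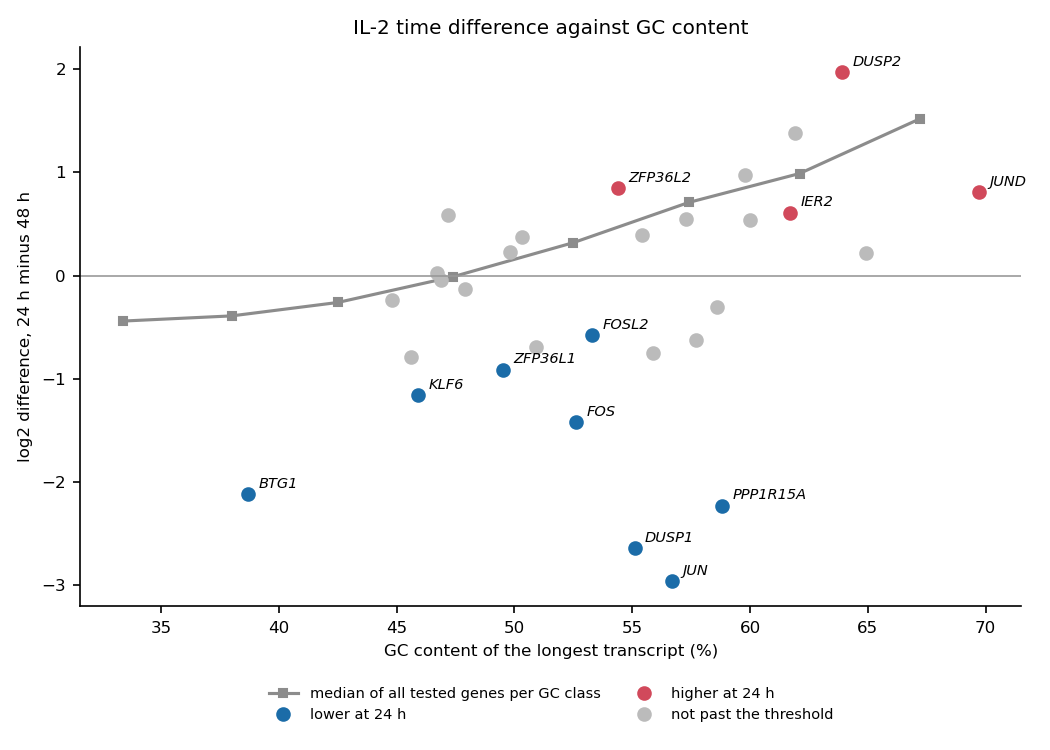
Log2 difference between 24 h and 48 h against GC content of the longest transcript; the grey line joins the medians of all tested genes per GC class, blue and red points are list genes lower and higher at 24 h, and grey points did not pass. JUN, DUSP1 and PPP1R15A lie far below the line and BTG1 below it at 38.7% GC; DUSP2 and ZFP36L2 lie above it, IER2 lies below it and JUND below its right end.

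Other genes of the response were read from lists. Of 25 further early response genes 17 were tested and 13 passed between the times, 11 lower and 2 higher (76.5%, against 25.9% of all tested genes and 38.5% of those of at least 5 CPM), with a median of -1.36. The largest falls were in the stress factor ATF3 (log2 -4.00, SE 0.45, edgeR adjusted p = 0.00113), the kinase SGK1 (-3.72), the pseudokinase TRIB1 (-3.60) and the G protein regulator RGS1 (-3.46). ATF3 was at 6.91 CPM (WT) and 20.8 CPM (ΔOGT-ISS) at 48 h and at 0.691 and 0.862 CPM at 24 h. With the offsets 9 of these 17 were lower and 1 higher (58.8%, against 13.0% of all tested genes and 18.4% of those of at least 5 CPM).

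In lists of signalling and RNA decay genes the share past the test ran from 22.2% to 47.1%, around the 25.9% of all tested genes and the 38.5% of those of at least 5 CPM, so these counts are read as a description. Of 26 MAP kinase cascade genes 7 rose and 2 fell at 24 h (34.6%), led by MAPK11 (2.54), HRAS (1.30), ARAF (1.08) and MAP2K7 (0.75), but with the offsets 1 was higher and 1 lower, and HRAS stood at 0.00. Of 17 SRF, ternary complex factor and CREB regulators 7 rose and 1 fell, with NAB2 (a corepressor of EGR proteins) at 2.68, ELK1 at 1.80, CRTC1 at 1.61 and SRF at 1.21. NAB2 and ELK1 also passed with the offsets (1.62 and 1.18), and SRF did not (0.27).

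Among 14 tested bZIP partners and calcium factors 2 rose and 2 fell, namely MAFK (2.16), NFATC3 (0.91), the calcineurin regulator RCAN1 (-1.44) and NFE2L2 (-0.97), and all 4 kept their sign and passed with the offsets. Of 9 other phosphatases and inhibitors DUSP16 fell (-1.39) and DUSP7 rose (1.06), and with the offsets DUSP16 alone passed (-1.31). Of 17 genes of the CCR4-NOT deadenylase and its partners 4 fell and 2 rose (35.3%), led by HNRNPD, an AU-rich element binding protein (-1.50), KHSRP (0.94), TOB2 (0.89) and CNOT6 (-0.75). With the offsets HNRNPD alone passed in that list (-1.09).

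Between the lines no list gene passed the test (0 of 30, against 0.463% of all tested genes). An unadjusted edgeR p under 0.05 was found in 6 of 30, against 1589 of all 17492 tested genes. Among genes of at least 5 CPM it was found in 4 of 24, against 1360 of 9854. DESeq2 called 0 as well, with 4 of 29 under an unadjusted 0.05, against 1066 of 13021. The median log2 difference, ΔOGT-ISS minus WT, was 0.16 over the list and 0.02 over all tested genes, with 17 positive and 13 negative values. Libraries of the lines did not overlap for 3 genes higher in ΔOGT-ISS (10%, against 11.4% of all tested genes) and 6 lower (20.0%, against 10.1%). The higher ones were FOSB, NR4A2 and IER5, and the lower ones JUNB, EGR1, EGR2, NR4A3, DUSP6 and CSRNP1.

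EGR2 (ENSG00000122877, chromosome 10, 62811996 to 62919900), a zinc finger factor known to restrain T cell activation, was at 9.93 CPM (WT) and 2.72 CPM (ΔOGT-ISS) at 48 h and at 5.28 and 2 CPM at 24 h. Both WT libraries lay above both edited ones, on 31 to 130 counts. The ratio of ΔOGT-ISS to WT was 0.273 at 48 h (95% counting interval 0.177 to 0.412), and 0.379 at 24 h (0.273 to 0.52). The log2 difference was -1.62 (SE 0.40, unadjusted p = 0.00368, edgeR adjusted p = 0.17). It passed in 1 of 16 alternatives, without the filter on low counts (-1.67, edgeR adjusted p = 0.0126), and over all of them the adjusted p ran from 0.0126 to 1.

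NR4A3 (ENSG00000119508, chromosome 9, 99821855 to 99866891) had the same order of libraries, at 6.06 and 2.02 CPM at 48 h and 5.12 and 2.31 CPM at 24 h (WT, then ΔOGT-ISS). Its ratios were 0.333 (0.197 to 0.544) and 0.452 (0.331 to 0.612), and in the model it came to -1.35 (SE 0.43, edgeR adjusted p = 0.335). NR4A2 (ENSG00000153234, chromosome 2, 156324432 to 156342348) lay the other way, with a ratio of 1.16 (0.998 to 1.36) at 48 h that reached 2.05 (1.84 to 2.29) at 24 h. Over both times it stood at 0.64 (SE 0.24, edgeR adjusted p = 0.439) on the log2 scale. EGR1 was at 6.06 and 1.75 CPM at 48 h, a ratio of 0.289 (0.166 to 0.485), but at 4.75 and 4.14 CPM at 24 h, a ratio of 0.871 (0.669 to 1.13).

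In the AP-1 group FOSB (ENSG00000125740, chromosome 19, 45467995 to 45475179) was at 3.5 CPM (WT) and 19.2 CPM (ΔOGT-ISS) at 48 h and at 5.12 and 6.24 CPM at 24 h. The 48 h library of ΔOGT-ISS stood apart from the other 3, with a ratio of 5.48 (3.86 to 7.99), against 1.22 (0.966 to 1.54) at 24 h. The log2 difference was 1.31 (SE 0.51, edgeR adjusted p = 0.466), and it too passed only without the filter (1.27, edgeR adjusted p = 0.0319). FOS had a ratio of 2.32 (1.9 to 2.84) at 48 h but 0.983 (0.806 to 1.2) at 24 h, and its difference of 0.59 did not pass (edgeR adjusted p = 0.707). JUN itself was close between the lines, with ratios of 1.05 (0.985 to 1.12) and 1.2 (1.06 to 1.35). FOSL2 was lower at both times, at 0.799 (0.76 to 0.84) and 0.741 (0.713 to 0.771), with a log2 difference of -0.38 (SE 0.15, edgeR adjusted p = 0.513).

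DUSP5 (ENSG00000138166, chromosome 10, 110497838 to 110511544) had a ratio of 0.908 (0.875 to 0.942) at 48 h, against 0.424 (0.411 to 0.438) at 24 h, and a log2 difference of -0.69 (SE 0.26, edgeR adjusted p = 0.439). It passed with limma without a filter (-0.64, adjusted p = 0.0474). DUSP6 was at 28.8 and 14.7 CPM at 48 h, a ratio of 0.512 (0.421 to 0.62), and 0.98 (0.871 to 1.1) at 24 h. DUSP1, DUSP2 and DUSP10 stood at 0.25, 0.48 and -0.22, and JUNB, JUND, FOSL1, MAFF and NR4A1 at -0.30, 0.37, 0.26, -1.29 and 0.28 (edgeR adjusted p = 0.597 to 0.976). SPRY1 and the KLF and RNA decay genes had log2 differences between -0.32 (BTG1) and 0.25 (ZFP36L1), none with an unadjusted p under 0.05. IER2, IER5, PPP1R15A and CSRNP1 stood at 0.25, 0.27, 0.21 and -0.53 (edgeR adjusted p = 0.744 to 0.912).

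**Figure D5:**
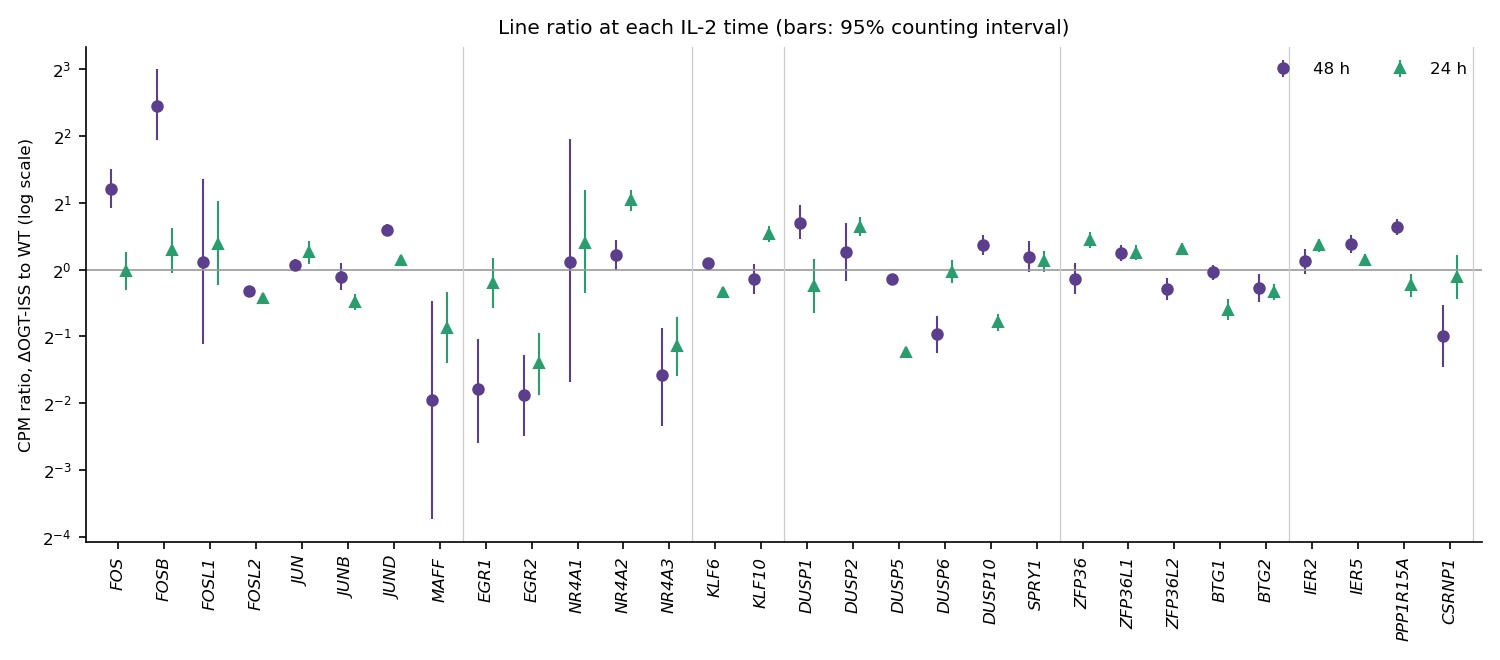
Ratio of ΔOGT-ISS to WT (log axis) for the 30 tested genes at 48 h (circles) and 24 h (triangles), with 95% counting intervals. EGR2 and NR4A3 lie below 1 at both times; FOSB is at 5.48 at 48 h and 1.22 at 24 h.

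The ratios at both times had the same sign in 22 of 30 genes (73.3%), against 56.7% of all tested genes; for the 24 with at least 5 CPM it was 66.7%, against 59.7% of 9854 genes. Such single-library intervals cover counting error only. At 48 h they lay above 1 for 9 and below 1 for 6 of the 24 list genes with at least 5 CPM, against 62.2% of all such genes in either direction. At 24 h they lay above for 10 and below for 8, against 64.6%.

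Of the other lists, CREM, a CRE-binding modulator, was the 1 gene past the test between the lines. It was at 38.6 CPM (WT) and 14.5 CPM (ΔOGT-ISS) at 48 h and at 21.9 and 7.83 CPM at 24 h (log2 -1.45, SE 0.21, edgeR adjusted p = 0.0383). CREM lies on chromosome 10, and with the median of its neighbouring genes removed it no longer passed (-0.71, edgeR adjusted p = 0.373). RGS1 (1.36, edgeR adjusted p = 0.0629) and the kinase MAP3K8 (-1.40, edgeR adjusted p = 0.0808) ended just short. MAP3K8 too lies on chromosome 10, where the median differences of its neighbouring genes were -0.73 (48 h) and -0.87 (24 h), and with that median removed it stood at -0.60 (edgeR adjusted p = 0.699).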

How the data were processed

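RNA libraries were made with RiboCop depletion and the CORALL V2 kit, per the labels' protocols. The submitters' processing notes name HISAT2 2.2.0, SAMtools 1.15.1, featureCounts 2.0.1 and hg38 without roles. No source used here gives the strand setting or how molecular identifiers were treated, so overlapping and antisense genes are uncertain. The authors deposited raw counts per gene, and FPKM values that equal count per length and library total. Transcript lengths are given in the same deposited table.

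The counts were tested with edgeR 4.0.16 (R 4.3.3; TMM; filterByExpr, minimum count 10; quasi-likelihood F test; an additive model of line and IL-2 time; 1 residual degree of freedom), two-sided, with Benjamini-Hochberg adjustment over 17492 genes at 0.05. SE is the log2 value divided by the square root of F. A library's CPM uses its TMM factor, and ratios carry exact conditional binomial 95% intervals. GC content and positions came from GENCODE release 29, and promoters from RefSeq.

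The members and lists were chosen with earlier results of these data known. Genes past a test, or changed by 1 log2 unit in both pairs at 5 CPM or more, were given by library, and up to 4 per further list were named. The list genes below the threshold, RGS1 and MAP3K8 were singled out after their values were seen. The script of the line fit was run on simulated counts, which does not show that a test with 1 residual degree of freedom is calibrated on these libraries. Alternatives were DESeq2 1.42.0, other scalings, no filter, limma 3.58.1 on log2(FPKM + 1) and log2(FPKM + 0.1), thinned 24 h libraries, omitted libraries or model terms, GC and length offsets, and, for the lines, removal of the regional median of 41 neighbouring genes.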

Additional observations from a re-analysis of the deposited data

Results flagged for a closer look

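In 3 of the 30 tested genes of the list the 24 h to 48 h ratio lay on opposite sides of 1 in the 2 lines, with both counting intervals excluding 1. FOSB was at 1.46 (1.01 to 2.17) in WT and 0.325 (0.266 to 0.398) in ΔOGT-ISS. NR4A2 was at 0.683 (0.59 to 0.791) in WT and 1.2 (1.07 to 1.36) in ΔOGT-ISS. DUSP6 was at 0.741 (0.643 to 0.857) in WT and 1.42 (1.19 to 1.69) in ΔOGT-ISS. All 3 were among the 24 list genes of at least 5 CPM. Among all genes at that level 5.65% did so.

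In 4 of the 30 tested genes the ratio of ΔOGT-ISS to WT lay on opposite sides of 1 at the 2 times. These 4 too were among the 24 list genes of at least 5 CPM, and 13.8% of all genes at that level did so. KLF6 was at 1.07 (1.02 to 1.13) at 48 h and 0.791 (0.753 to 0.831) at 24 h. Neighbouring genes on chromosome 10 had median log2 differences of -0.59 and -0.43, and with these removed the fitted difference of KLF6 between the lines turned from -0.12 to 0.39 (edgeR adjusted p = 0.942 and 0.774). DUSP10 was at 1.29 (1.16 to 1.43) and 0.579 (0.529 to 0.633). ZFP36L2 was at 0.819 (0.728 to 0.921) and 1.24 (1.18 to 1.32). PPP1R15A was at 1.56 (1.43 to 1.7) and 0.849 (0.753 to 0.958).

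The ratios of these 7 stayed on the same side of 1 with library-size, RLE or upper-quartile scaling. That holds for the ratios alone, as their intervals are not given under the other scalings. FOSB in WT went from 1.46 to 1.39 with upper-quartile scaling, and KLF6 at 48 h from 1.07 to 1.05 with RLE. The lower bounds of these, 1.01 and 1.02, were already close to 1. Each ratio compares 2 single libraries, so the difference between lines or times was not tested.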

How the results depend on the processing

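Each library is the only one of its combination, and the model has 1 residual degree of freedom, so an interaction of line and time could not be tested. With the IL-2 term in the model the line term compares the lines within each time, and the labels give no replicate numbers for a further block. Fits that left out 1 library also dropped the other model term, mix line with time and assume that the lone library varies like the rest. The filter on low counts left 5 of the 35 list genes out, and without it all 35 were tested.

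Between the times, the count of 12 list genes was 8 to 16 in the fits with all 4 libraries, and 5 to 10 with 1 library left out (5 and 7 without replicates 2 and 1 of ΔOGT-ISS, 7 and 10 without replicates 2 and 1 of WT). Over all genes 4535 passed, 2178 with the GC and length offsets, and 1098 to 3657 with 1 library left out. The split was 2625 higher and 1910 lower, 977 and 1201 with the offsets, and 3714 and 1183 without the filter. The offsets reversed JUND (-0.92), JUNB (-1.02) and IER2 (-0.35). The sign also changed in genes that passed in neither fit: EGR1 (0.39 to -0.12), FOSL1 (0.54 to -0.25), ZFP36 (0.55 to -0.03) and NR4A3 (-0.04 to 0.02). These alternatives show that GC content and length bear on the sign, and what lies behind the trend was not tested. Of 447 values of single list genes under the alternatives 393 stayed on their side of the threshold, 36 ended short of it, 15 newly passed it and 3 reversed.

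Between the lines, 2 list genes passed without the filter and 1 with limma without a filter, against 0 otherwise (1 to 7 with an unadjusted p under 0.05). Over all genes 81 passed, against 287 with DESeq2, 154 with RLE factors, 546 without the filter, 855 with limma without a filter, 132 with the offsets and 31 with regional medians removed. Without the IL-2 term 0 passed (242 unadjusted), limma on log2(FPKM + 0.1) and log2(FPKM + 1) gave 0 (1362 and 1392 unadjusted), and 0 to 16 passed with 1 library left out. The cause was not tested.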
